A study of Rattus norvegicus with 14 samples.

Results

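The genes described here are the cytochromes P450 of families 1 to 4, taken as every probe whose symbol in the platform annotation starts with Cyp, a family number from 1 to 4, a subfamily letter and a member number. The rule found 32 probes for 28 genes, among 4952 probes and 4156 genes with a symbol. Family 1 has 2 genes, family 2 has 18, family 3 has 3 and family 4 has 5. The genes Cyp2b12 (3 probes), Cyp1a1 (2 probes) and Cyp4b1 (2 probes) were measured more than once, and every other member has a single probe.

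RNA came from the small intestine of rats aged 20 days after perfusion of the gut with solutions labelled HG and HF. From what is known of the study they stand for high glucose and high fructose, though the labels give the letters alone. Each array had 2 colours and gave a ratio of the RNAs in its channels. After 4 h of perfusion, 5 arrays paired HG with HF samples numbered alike, and a repeat array held pair 2 again. After 20 min, 4 arrays did so. The control here was a set of 3 arrays with identical RNA of 4 h perfusion on either side (named 1HG, 3HG and 3HF), called same-RNA arrays below. By name, 1HG goes with the 4 h pair 1, and 3HG and 3HF both go with pair 3. The main test treated all these arrays as independent. A further array held only the primers of the labelling kit. No array is labelled as unperfused gut, so more RNA with HF and less RNA with HG cannot be told apart. The labels name no strain or sex, and leave unsaid if each pair stands for another animal. The p-values measure the spread between arrays, which may be technical. Fewer cells of a type and less RNA per cell cannot be told apart in such tissue RNA.

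Values are log ratios, taken as log2 and centred on the median of each array. A value above 0 likely stands for a higher RNA level with HF. The basis is the fructose transporter gene Slc2a5, whose mean was 1.65 ± 0.25 (SD, n = 5) after 4 h. Its ratio was -1.66 on the repeat array, whose title puts a 5 after HG and a 3 after HF, taken as the dye names Cy5 and Cy3. At 20 min its ratios were -0.38, -0.01, -0.43 and -0.44, so this basis covers the 4 h arrays alone. The same direction was assumed at 20 min, and the comparison between the times rests on that assumption. The signal intensities were not analysed here, so a ratio says nothing of how strongly the gut expressed a gene, and the labelled tissue could not be checked against its markers. The SD over all probes was 0.33 to 0.40 on the 4 h and 20 min arrays, but 1.39 on 1HG and 0.82 on the repeat array, which was left out of the tests. Precision is limited by how many arrays each group has. Of 53 measured markers of 8 cell types, 0 passed the limma test in each comparison, and 4, 3 and 5 had an unadjusted p below 0.05 (4 h, 20 min and 4 h against 20 min), where 9.97%, 5.21% and 13.5% of all features stood. Some marker lists leaned one way: pancreatic acinar markers had 2 above and 8 below 0 at 4 h and again at 20 min. Between the times hepatocyte markers had 1 above and 8 below, enterocyte markers 3 above and 6 below (median -0.24), and erythrocyte markers 4 above and 0 below. Erythrocyte markers had the same counts at 4 h, and smooth muscle markers had 1 above and 5 below at 20 min and between the times. The part of these markers in the P450 values was not tested.

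Cytochromes P450 are haem enzymes that insert an oxygen atom into a substrate, with electrons passed on by a reductase. Families 1 to 3 mostly oxidise drugs, plant compounds and other foreign chemicals, together with steroids and fatty acids, and many are induced by foreign compounds through the receptors Ahr, Nr1i2 (PXR) and Nr1i3 (CAR). Family 4 mostly hydroxylates fatty acids and eicosanoids at the end of the chain. Enterocytes carry a set of these enzymes, among which those of family 3 take part in the first-pass metabolism of drugs.

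No P450 gene passed the test at either time against the same-RNA arrays, or between the times. Set against the same-RNA arrays at 4 h, 0 of the 28 genes had a limma adjusted p below 0.05, against 0.0641% of all 4682 features, and the lowest adjusted p among the genes was 0.371. At 20 min the count was 0 (0.0427% of all features, lowest adjusted p 0.801). For 4 h against 20 min it was also 0 (0.598% of all features, lowest adjusted p 0.209). At an unadjusted p below 0.05 the counts were 3, 2 and 4 of 28, where 9.97%, 5.21% and 13.5% of all features stood. Groups were fully apart, with no shared range, in 1, 2 and 1 of the genes, against 6.71%, 7.01% and 6.54% of all features. These shares of the members are close to the background, and P450 genes as a group did not stand apart in these counts.

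The differences were also spread evenly about 0. At 4 h, 14 genes lay above and 14 below the same-RNA arrays, with a median size of 0.14, compared with 0.13 over all features, of which 48.5% lay above. At 20 min these counts were again 14 and 14, with a median size of 0.11, the same as over all features, of which 50.6% lay above. Between the times 12 genes were above and 16 below 0, with a median difference of -0.07 (-0.01 over all features, of which 48% lay above 0). The intervals bounded most genes, as far as the spread between arrays goes. The 95% interval of the difference lay within 1 on the log2 scale, that is within a 2-fold change either way, for 24 of 28 genes in each of the 3 comparisons. Of all 4682 features this held for 4247 at 4 h, 4275 at 20 min and 4337 between the times. The interval lay within 0.5 for 16 genes at 4 h, 14 at 20 min and 16 between the times. For all features these counts were 2612, 2682 and 2776. The median distance from the difference to the end of its interval was 0.34 at 4 h.

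**Figure D1:**
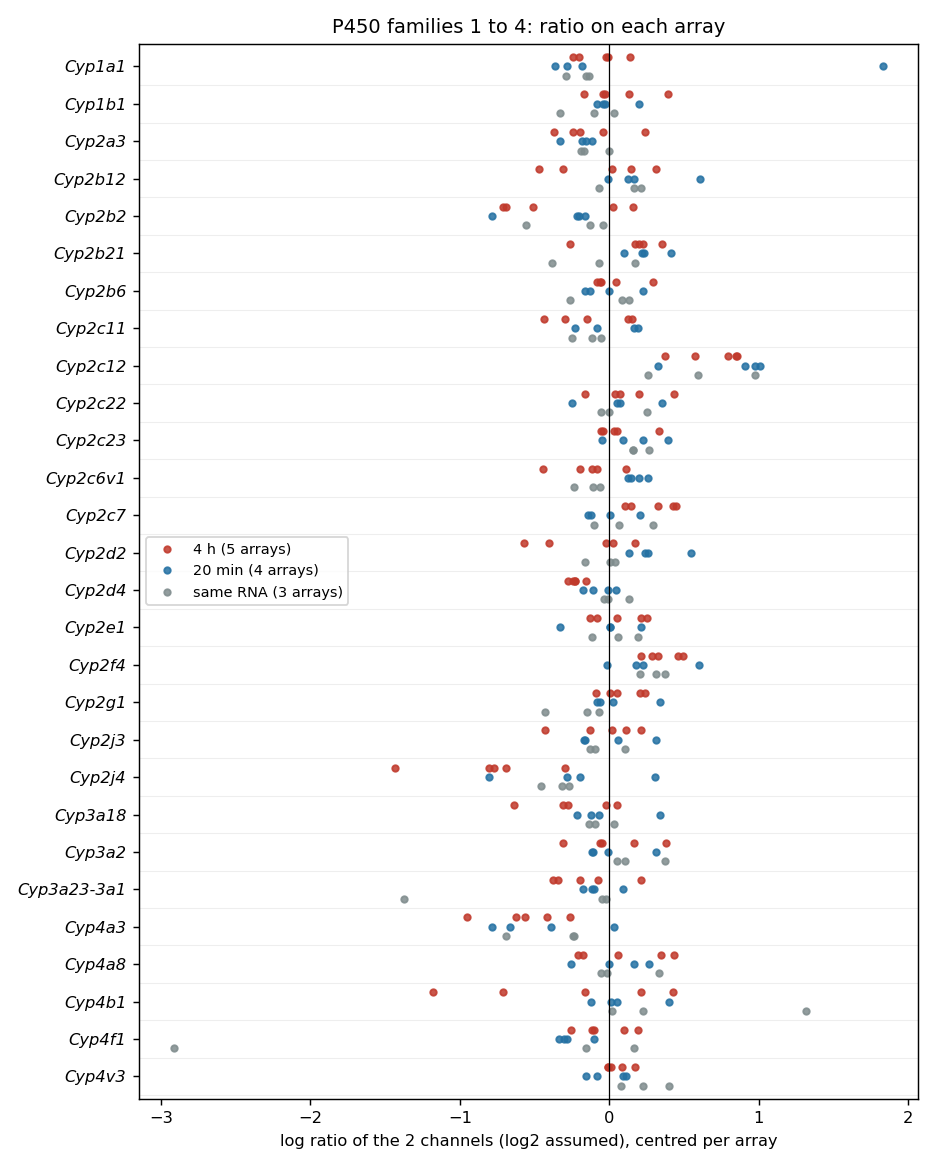
Log ratio (log2 assumed, x axis) of the 28 P450 genes (y axis) on each array, with probes of a gene averaged; red points are the 5 arrays at 4 h, blue the 4 at 20 min and grey the 3 same-RNA arrays. Most points lie near 0, Cyp2c12 lies above 0 on all 12 arrays, and single arrays stand apart for Cyp1a1 (1.83 at 20 min), Cyp4f1 (-2.91 on 1HG) and Cyp3a23-3a1 (-1.38 on 1HG).

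**Figure D2:**
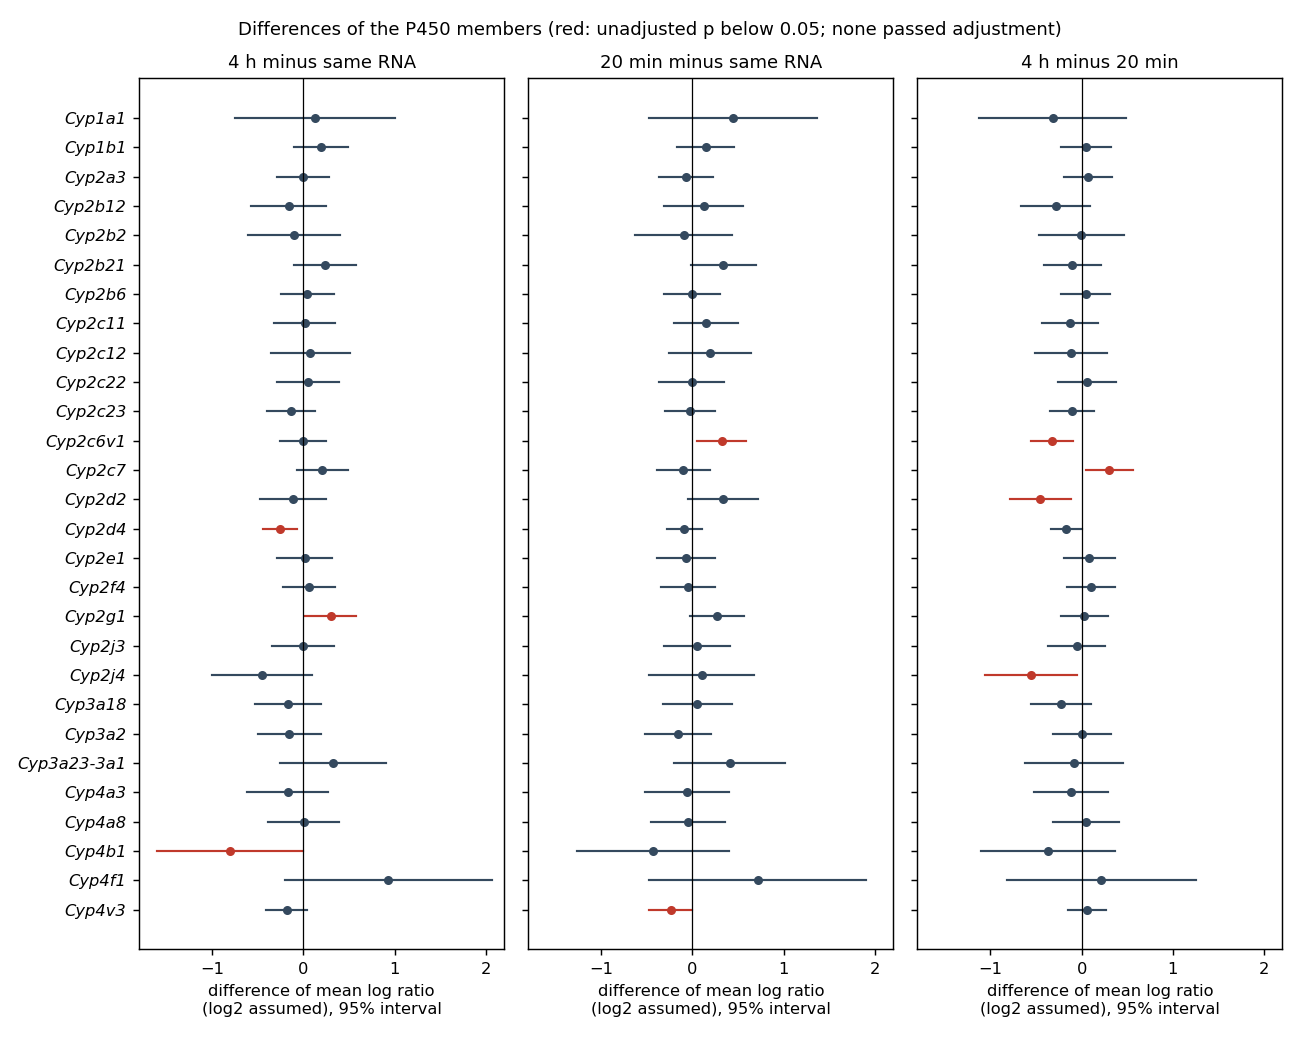
Difference of the mean log ratio (log2 assumed, x axis) with its 95% interval for each of the 28 genes (y axis) in the 3 comparisons; red marks an unadjusted p below 0.05. The red genes number 3, 2 and 4, and the widest intervals at 4 h are those of Cyp4f1, Cyp1a1 and Cyp4b1.

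Family 1 oxidises planar aromatic compounds and is the classic target of the aryl hydrocarbon receptor. Cyp1a1 had ratios of -0.20, -0.02, 0.14, -0.24 and -0.01 on arrays 1 to 5 at 4 h, and of -0.16, -0.29 and -0.13 on 1HG, 3HG and 3HF. These groups overlapped, and the difference was 0.13 ± 0.40 (SE; limma adjusted p = 0.934). That SE pools the spread of all 3 groups, including the 20 min arrays, where the SD was 1.06 against 0.16 at 4 h. With only the 4 h and same-RNA arrays in the fit the limma adjusted p was 0.743. At 20 min its ratios were -0.29, 1.83, -0.18 and -0.37, so array 2 alone was high and the other 3 arrays lay near the same-RNA values. The difference at 20 min was 0.44 ± 0.42 (SE; adjusted p = 0.938), and was -0.08 without array 2. Both probes of the gene showed the high array: probe 4322 read 2.23 and probe 4943 read 1.43 there, while on the other 11 arrays they lay between -0.69 and 0.30. Probes above 1 on that array numbered 36 of 4952 (0.727%), and those of Cyp1a1 are 2 of the 4 that also stayed below 0.5 on all other arrays. The pair of probes was singled out after its values had been seen. Cyp1b1, expressed in many tissues outside the liver, had ratios of 0.39, -0.04, -0.03, -0.17 and 0.13 at 4 h and a difference of 0.19 ± 0.14 (SE; adjusted p = 0.613). Its difference was 0.15 ± 0.14 at 20 min (adjusted p = 0.949) and 0.05 ± 0.13 between the times (adjusted p = 0.933).

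Family 3 holds the enzymes best known for the oxidation of drugs and steroids in gut and liver. The 3 genes measured are neighbours in the genome. Cyp3a2 had ratios of -0.07, -0.05, -0.31, 0.16 and 0.38 at 4 h, of -0.12, -0.01, -0.11 and 0.31 at 20 min, and of 0.10, 0.05 and 0.37 on the same-RNA arrays, so all groups overlapped. Its difference was -0.15 ± 0.16 (SE) at 4 h and -0.16 ± 0.17 at 20 min (adjusted p = 0.766 and 0.951). Cyp3a18 had 4 of 5 ratios below 0 at 4 h, between -0.63 and 0.05, and averaged -0.24 ± 0.27 (SD, n = 5) against -0.07 ± 0.09 (n = 3) on the same-RNA arrays. Its difference was -0.17 ± 0.16 (SE; adjusted p = 0.732). For Cyp3a23-3a1 the differences of 0.33 ± 0.27 at 4 h and 0.41 ± 0.28 at 20 min (SE; adjusted p = 0.669 and 0.861) rested on the array 1HG, where its ratio was -1.38, compared with -0.05 on 3HG and -0.02 on 3HF. Without 1HG they were -0.12 and -0.04. Between the times the differences of Cyp3a2, Cyp3a18 and Cyp3a23-3a1 were 0.00, -0.22 and -0.08, with adjusted p of 0.998, 0.577 and 0.944.

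The sequences before the start of Cyp3a2 and Cyp3a23-3a1 are shown because they are alike: 203 of 227 aligned bases (89.4%) are identical in a local alignment. Each of these paralogs was read by a single probe, and whether a probe also took up RNA of the other gene was not tested. The sequence of Cyp2c7 is shown as the 1 of 24 that holds the motif TATAAA more than once, and that of Cyp2j4 as the gene with the largest difference between the times. Each run is the 250 bases before the annotated start in RefSeq on the GRCr8 build, 5′ to 3′ along the gene. Capitals mark the letters TATAAA, those of GCGTG (the core of the Ahr motif) and AGGTCA (the core element of the nuclear receptor motifs) on either strand, and in Cyp2c7 the first TATAAA overlaps AGGTCA by 1 base.
Cyp3a2 (chr12:14343858-14344107, minus strand): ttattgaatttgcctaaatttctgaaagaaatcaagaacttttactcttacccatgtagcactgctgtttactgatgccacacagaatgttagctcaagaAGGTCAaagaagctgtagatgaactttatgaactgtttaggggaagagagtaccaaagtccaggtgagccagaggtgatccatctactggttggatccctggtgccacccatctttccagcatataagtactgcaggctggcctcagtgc
Cyp3a23-3a1 (chr12:14398804-14399053, minus strand): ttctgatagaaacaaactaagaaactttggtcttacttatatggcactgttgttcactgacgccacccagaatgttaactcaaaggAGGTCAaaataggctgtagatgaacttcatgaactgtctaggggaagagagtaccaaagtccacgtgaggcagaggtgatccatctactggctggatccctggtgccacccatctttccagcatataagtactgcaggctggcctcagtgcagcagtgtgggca
Cyp2c7 (chr1:247966144-247966393, plus strand): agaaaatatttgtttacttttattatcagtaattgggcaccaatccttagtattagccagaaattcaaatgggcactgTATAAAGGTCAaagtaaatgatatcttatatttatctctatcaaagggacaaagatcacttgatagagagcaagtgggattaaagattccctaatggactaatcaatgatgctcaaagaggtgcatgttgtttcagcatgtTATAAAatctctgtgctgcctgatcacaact
Cyp2j4 (chr5:116323043-116323292, minus strand): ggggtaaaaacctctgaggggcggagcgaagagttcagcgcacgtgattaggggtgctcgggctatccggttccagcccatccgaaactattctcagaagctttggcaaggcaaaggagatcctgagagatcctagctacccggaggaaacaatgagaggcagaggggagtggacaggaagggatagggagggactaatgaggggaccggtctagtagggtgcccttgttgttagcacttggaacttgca

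A promoter was found for 24 of the 28 genes, but not for Cyp1a1, Cyp2b6, Cyp2c6v1 or Cyp4v3. The motif search therefore did not cover Cyp1a1. AGGTCA was present in 9 of the 24 (37.5%) and in 13.7% of 27457 RefSeq promoters of the same length. Its carriers were Cyp2b12, Cyp2b21, Cyp2c7, Cyp2c11, Cyp2c22, Cyp2e1, Cyp3a2, Cyp3a23-3a1 and Cyp4a3. TATAAA was present in 6 of 24 (25.0%, against 13.1% of all promoters), and GCGTG in 3 of 24 (12.5%, against 27.2%), namely Cyp1b1, Cyp2b2 and Cyp4f1. A match is a description of letters and not of a bound site. Several carriers are paralogs that are neighbours in the genome, so the promoters are not independent, and base composition was not matched. As no P450 gene passed the test in any comparison, carriers and other genes could not be set apart by calls.

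Family 2 is the largest and most varied. Its 18 genes include the Cyp2c enzymes of drug, steroid and arachidonic acid metabolism, Cyp2e1, which oxidises ethanol and other small molecules, and the Cyp2j enzymes, which form epoxides of arachidonic acid in gut and other tissues. At 4 h, 9 of the 18 lay above and 9 below the same-RNA arrays, with a median of 0.01 and a range from -0.45 (Cyp2j4) to 0.30 (Cyp2g1). At 20 min the counts were 9 and 9, with a range from -0.10 to 0.34. Between the times 7 lay above and 11 below 0, with a median of -0.08.

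Cyp2j4 had the lowest difference of the family at 4 h. Its ratios were -0.30, -1.43, -0.77, -0.69 and -0.80 on arrays 1 to 5 at 4 h, -0.28, -0.81, -0.20 and 0.30 at 20 min, and -0.27, -0.31 and -0.46 on the same-RNA arrays. At 4 h 4 of the 5 arrays lay below all same-RNA arrays, and array 1 lay among them. The difference was -0.45 ± 0.25 (SE; limma adjusted p = 0.504) against the same-RNA arrays and -0.55 ± 0.23 (SE; unadjusted p = 0.0346, adjusted p = 0.322) against 20 min. On the repeat array of pair 2 the ratio was -0.33, close to the same-RNA median of -0.31, while array 2 itself gave -1.43. Its neighbour Cyp2j3 averaged -0.04 ± 0.25 (SD, n = 5) at 4 h and a difference of -0.00 ± 0.16 (SE; adjusted p = 0.994).

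Cyp2d4 and Cyp2d2, also neighbours, belong to the subfamily that oxidises amine drugs. Cyp2d4 had ratios of -0.15, -0.27, -0.24, -0.23 and -0.23 at 4 h, the narrowest group of any P450 gene, and of 0.13, -0.01 and -0.04 on the same-RNA arrays. These groups did not overlap, and the difference of -0.25 ± 0.09 (SE; unadjusted p = 0.012, adjusted p = 0.371) had the smallest p of the 28 genes at 4 h. On the repeat array the sign was turned, at 0.55. Cyp2d2 was higher at 20 min, with ratios of 0.13, 0.54, 0.26 and 0.24 that all lay above the same-RNA arrays (0.04, -0.16 and 0.00). That difference was 0.33 ± 0.17 (SE; unadjusted p = 0.0794, adjusted p = 0.801). At 4 h its ratios were 0.17, -0.02, 0.03, -0.57 and -0.40, of which array 1 overlapped the 20 min values. Between the times its difference was -0.45 ± 0.15 (SE; unadjusted p = 0.0123, adjusted p = 0.217).

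Among the Cyp2c genes, Cyp2c6v1 had the smallest p at 20 min and between the times. Its ratios were 0.20, 0.15, 0.12 and 0.26 at 20 min, -0.08, -0.19, 0.11, -0.44 and -0.11 at 4 h, and -0.06, -0.24 and -0.11 on the same-RNA arrays. The 20 min arrays lay above every array of the other groups. The difference at 20 min was 0.32 ± 0.12 (SE; unadjusted p = 0.0227, adjusted p = 0.801) and between the times -0.32 ± 0.11 (SE; unadjusted p = 0.0106, adjusted p = 0.209). Its difference at 4 h was -0.01 ± 0.12 (adjusted p = 0.99). Cyp2c7 had ratios of 0.14, 0.33, 0.45, 0.42 and 0.11 at 4 h and of -0.14, -0.12, 0.00 and 0.20 at 20 min. These overlapped by 1 array at 20 min, and the difference between the times was 0.30 ± 0.12 (SE; unadjusted p = 0.0247, adjusted p = 0.282). On the same-RNA arrays Cyp2c7 read 0.06, -0.10 and 0.29, which overlapped the 4 h values. Its difference at 4 h was 0.20 ± 0.13 (SE; limma adjusted p = 0.553). The male-specific liver gene Cyp2c11 averaged -0.12 ± 0.26 (SD, n = 5) at 4 h and of 0.01 ± 0.20 (n = 4) at 20 min, with a difference between the times of -0.13 ± 0.14 (SE; adjusted p = 0.761). For Cyp2c23, an arachidonic acid epoxygenase of the kidney, this difference was -0.10 ± 0.11 (SE; adjusted p = 0.764).

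The Cyp2b subfamily includes known targets of the receptor CAR. Cyp2b2, Cyp2b12 and Cyp2b21 share a stretch of the genome with Cyp2g1, Cyp2a3 and Cyp2f4, while Cyp2b6 could not be placed. Of these 6 neighbours 3 lay above and 3 below 0 in each comparison. Cyp2g1, first described in the olfactory lining, had ratios of 0.20, -0.09, 0.05, 0.24 and 0.00 at 4 h and of -0.07, -0.15 and -0.43 on the same-RNA arrays, with a difference of 0.30 ± 0.13 (SE; unadjusted p = 0.0406, adjusted p = 0.475). Array 2 at 4 h overlapped the same-RNA values. For Cyp2b21 the difference was 0.23 ± 0.16 (SE; adjusted p = 0.581) at 4 h and 0.34 ± 0.16 (adjusted p = 0.801) at 20 min.

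Cyp2b12 was read by 3 probes that disagreed. Its averaged difference was -0.16 ± 0.19 (SE) at 4 h and 0.12 ± 0.20 at 20 min, with adjusted p of 0.797 and 0.967. At 4 h, probe 789 read 0.24, -0.39, -1.41, -1.40 and -0.12 on arrays 1 to 5. On the same arrays probe 788 read 0.19, 0.14, 0.20, 0.53 and 0.46, and probe 2330 read 0.51, 0.30, -0.20, -0.05 and 0.09. So 1 probe was low on arrays 3 and 4 and the other 2 were not. Between the times the averaged difference was -0.28 ± 0.17 (SE; adjusted p = 0.528).

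Cyp4b1, of the family of fatty acid hydroxylases, showed the same pattern in 1 of its 2 probes. Probe 4807 read 0.44, -0.44, -2.22, -1.56 and 0.36 at 4 h, again low on arrays 3 and 4, and probe 4218 read 0.41, 0.11, -0.14, 0.15 and 0.06. Of 4952 probes 53 (1.07%) lay below -1 on both arrays, and these 2 were the P450 probes among them. Only 3 of the 53 stayed above -0.5 on the other 10 arrays, among them probe 4807 but not probe 789, which read -0.66 on array 2 at 20 min. The pair was singled out after its values had been seen. On the same-RNA array 3HG it was probe 4218 that stood apart, at 2.69, against 0.44 on 1HG and 0.22 on 3HF. The averaged difference at 4 h, -0.80 ± 0.37 (SE; unadjusted p = 0.0488, adjusted p = 0.492), thus combined low values of 1 probe at 4 h with a high value of the other on 3HG. Without 3HG it was -0.41. At 20 min it was -0.43 ± 0.38 (SE; adjusted p = 0.924), and -0.04 without 3HG. Between the times it was -0.37 ± 0.34 (SE; adjusted p = 0.703).

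**Figure D3:**
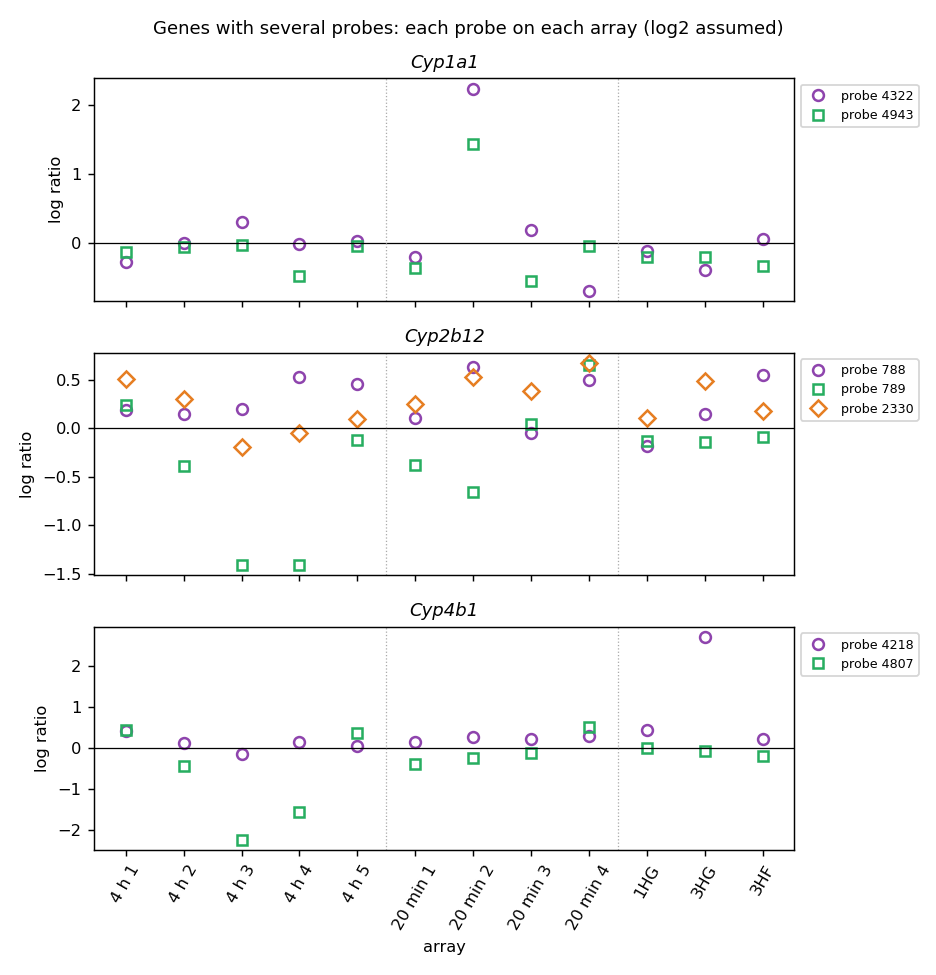
Log ratio (log2 assumed, y axis) of each probe of Cyp1a1, Cyp2b12 and Cyp4b1 on the 12 arrays in the fit (x axis; dotted lines part 4 h, 20 min and same-RNA arrays). Both Cyp1a1 probes are high on array 2 at 20 min (2.23 and 1.43), whereas probe 789 of Cyp2b12 (-1.41 and -1.40) and probe 4807 of Cyp4b1 (-2.22 and -1.56) are low on arrays 3 and 4 at 4 h without the other probes of these genes.

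The other genes of family 4 are Cyp4a3 and Cyp4a8, fatty acid omega-hydroxylases of the subfamily induced through Ppara, Cyp4f1, which acts on leukotrienes and other eicosanoids, and Cyp4v3. For the family as a whole 2 genes lay above and 3 below 0 at 4 h (median -0.17), and 1 above and 4 below at 20 min (median -0.06). Cyp4f1 had the largest difference of all P450 genes at 4 h, 0.93 ± 0.52 (SE; adjusted p = 0.504), but its ratios at 4 h were only -0.10, -0.12, 0.19, -0.25 and 0.10. The same-RNA arrays gave -2.91 on 1HG, 0.16 on 3HG and -0.16 on 3HF. Without 1HG the difference was -0.04 at 4 h and -0.26 at 20 min, where it was 0.71 ± 0.54 with that array (adjusted p = 0.888). Cyp4v3 had ratios of -0.01, -0.01, 0.08, 0.17 and 0.01 at 4 h, of -0.16, 0.11, -0.08 and 0.09 at 20 min and of 0.07, 0.22 and 0.40 on the same-RNA arrays. The difference of -0.24 ± 0.11 at 20 min (SE; unadjusted p = 0.0471, adjusted p = 0.801) and that of -0.18 ± 0.10 at 4 h (adjusted p = 0.511) came from groups that overlapped. For Cyp4a8 the difference was 0.00 ± 0.18 (SE; adjusted p = 0.996) at 4 h and -0.05 ± 0.19 (adjusted p = 0.992) at 20 min.

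What was called depended on the control. With ratios set against 0 in place of the same-RNA arrays, 6 of 28 P450 genes passed at 4 h (21.4%), as did 763 of 4682 features (16.3%, with 8.42% above and 7.88% below 0). At 20 min 1 of 28 passed (3.57%), against 8.2% of all features. The 6 genes were Cyp2c12 (mean 0.69), Cyp2f4 (0.35) and Cyp2c7 (0.29) above 0, and Cyp2d4 (-0.23), Cyp4a3 (-0.57) and Cyp2j4 (-0.80) below it. The gene at 20 min was Cyp2c12 (0.80; limma adjusted p = 0.00314). They were named after their values had been seen.

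For 3 of the 6 the same-RNA arrays showed a ratio of the same sign and near the same size, and Cyp2j4 lay below 0 there too. Cyp2c12, a female-specific steroid hydroxylase of the liver, was above 0 on all 12 arrays, with 0.58, 0.84, 0.79, 0.85 and 0.37 at 4 h, 1.01, 0.91, 0.33 and 0.97 at 20 min, and 0.60, 0.26 and 0.98 where both channels held the same RNA. Its difference at 4 h was 0.08 ± 0.20 (SE; adjusted p = 0.913). It was the 1 member with the same sign on all 12 arrays (3.57%), as were 8.07% of all features. Cyp2f4, an enzyme known from the lung, averaged 0.35 ± 0.12 (SD, n = 5) at 4 h and of 0.30 ± 0.08 (n = 3) on the same-RNA arrays, and a difference of 0.06 ± 0.13 (SE; adjusted p = 0.898). Cyp4a3 had means of -0.57 ± 0.26 (SD, n = 5), -0.45 ± 0.36 (n = 4) and -0.39 ± 0.26 (n = 3) at 4 h, at 20 min and on the same-RNA arrays, with a difference at 4 h of -0.17 ± 0.20 (SE; limma adjusted p = 0.797).

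The repeat array of pair 2 was read for the same 6 genes. Cyp2c12, Cyp2f4 and Cyp4a3 kept their sign there and had larger ratios, 4.66, 2.05 and -2.71, where array 2 gave 0.84, 0.32 and -0.63. Cyp2d4 and Cyp2c7 changed sign relative to the same-RNA median, from -0.26 to 0.56 and from 0.26 to -0.18. Cyp2j4 kept its sign by that measure, going from -1.12 to -0.02. Over all P450 genes 13 of 28 (46.4%) had the opposite sign on the repeat array, as did 45.4% of all features. Whether the sign on this array can sort single genes was not tested. The ratios of the 28 genes on the primer array lay between -0.31 and 0.34.

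**Figure D4:**
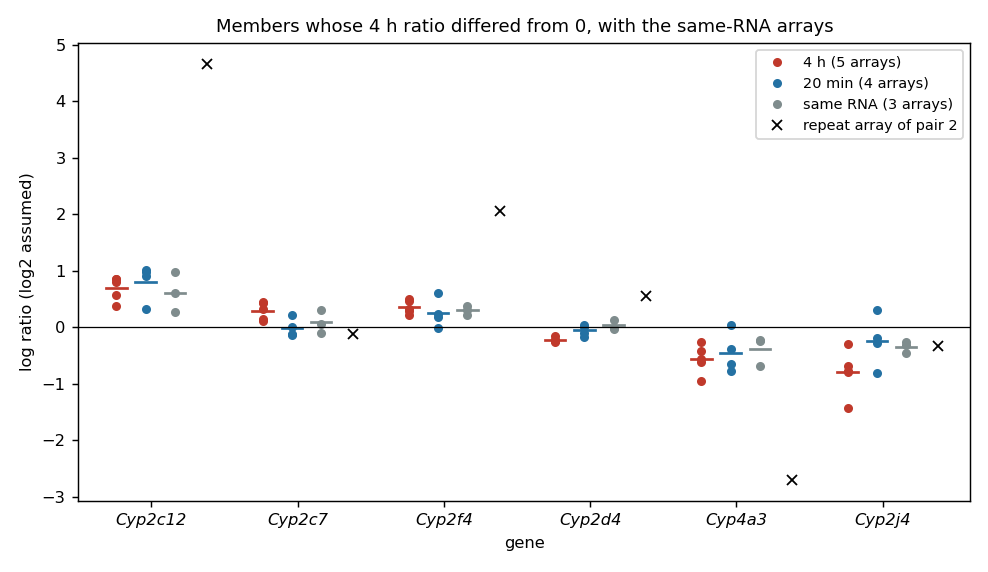
Log ratio (log2 assumed, y axis) of the 6 genes (x axis) whose mean at 4 h differed from 0, on the 4 h (red), 20 min (blue) and same-RNA (grey) arrays with the mean of each group as a bar, and on the repeat array of pair 2 (cross). For Cyp2c12, Cyp2f4 and Cyp4a3 the grey points lie with the red ones and the cross lies further out on the same side; for Cyp2d4 the red points lie below the grey ones and the cross above them.

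Other genes of the P450 system were taken by list. Of 12 measured genes for electron donors and haem supply 0 passed in each comparison. Cyb5b, a cytochrome b5 of the outer mitochondrial membrane, had the smallest p of these, with differences of 0.40 ± 0.15 (SE; adjusted p = 0.422) at 4 h and of 0.55 ± 0.14 (adjusted p = 0.122) between the times. Alas1, which makes the first step of haem synthesis, differed by 0.18 at 4 h and 0.20 at 20 min (adjusted p = 0.536 and 0.801). Of 28 receptors and transcription factors of P450 genes 0 passed. Those with the smallest p at 4 h were Pparg (0.40; adjusted p = 0.358), the xenobiotic receptor gene Nr1i3 (-0.38; adjusted p = 0.448) and Cebpa (0.29; adjusted p = 0.466), and between the times Nr1h3 (-0.59; adjusted p = 0.148), the receptor for oxysterols. None of 16 other oxidation enzymes or 12 eicosanoid enzymes passed either. At an unadjusted p below 0.05 stood 0 of the 16 in each comparison, and 0, 3 and 1 of the 12 at 4 h, at 20 min and between the times, against 9.97%, 5.21% and 13.5% of all features. These counts were 1, 0 and 2 of the 12 genes for electron donors and haem supply, and 4, 1 and 3 of the 28 receptors and factors. Of the 16 oxidation enzymes 13 lay above and 3 below 0 at 4 h, 8 and 8 at 20 min, and 12 and 4 between the times. Over all features 48.5%, 50.6% and 48% lay above 0. Of the 12 genes for electron donors and haem supply 8 lay above 0 at 4 h and 6 between the times. These counts were 18 and 15 of the 28 receptors and factors, and 8 and 7 of the 12 eicosanoid enzymes. The 12 P450 genes of higher families make and break down sterols, bile acids, steroids and vitamin D. Of these 0, 0 and 1 passed at 4 h, at 20 min and between the times, against 0.0641%, 0.0427% and 0.598% of all features. An unadjusted p below 0.05 was found for 4, 0 and 3 of the 12. Above 0 lay 8 of them at 4 h and 7 between the times. The lists were not tested against the P450 genes of families 1 to 4.

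The 1 gene of these lists that passed was Cyp51, a demethylase of sterol synthesis, between the times. Its ratios were -0.42, -0.40, -0.71, -0.39 and -0.58 at 4 h, -0.07, 0.04, 0.23 and 0.27 at 20 min, and 0.08, 0.45 and 0.02 on the same-RNA arrays. All 4 h arrays lay below every other array, and the repeat array read 0.38. The difference between the times was -0.62 ± 0.12 (SE; limma adjusted p = 0.0469), and that from the same-RNA arrays -0.68 ± 0.13 (SE; adjusted p = 0.128). The call between the times was lost when any single 4 h or 20 min array was left out, with differences from -0.68 to -0.56 and adjusted p from 0.0539 to 0.149.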

How the data were processed

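The authors deposited 1 table of log ratios for 14 arrays of 2 colours, treated here as log2 values. For scanning, correction, normalization, log base and direction, nothing was given in the sources used here. The median of each array was close to 0 (-0.07 to 0.02). Another base would rescale all differences alike and leave p-values as they are. Symbols came from the platform annotation (4426 of 4952 probes have 1 symbol), and the GRCr8 gene table holds 27 of the 28 P450 genes under the same symbol; Cyp2b6 was not found there. No genome build is named for the probes.

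Each array was centred on its median, and probes of 1 symbol were averaged (4682 features). A single limma 3.58.1 fit in R 4.3.3 used 12 arrays (5, 4 and 3), with 9 residual and 2.84 prior degrees of freedom, and Benjamini-Hochberg adjustment over all features. The spread was pooled over the groups, so a single outlying array in any group widens the SE of that gene in every comparison. A feature was called at an adjusted p below 0.05. The fit was tested on simulated data. Alternatives covered centring, scaling, quantile normalization, single probes, the repeat array, array weights, robust variances, the arrays in the fit, the control, a replicate block and each array left out. Neighbours are genes with at most 20 protein-coding genes between them. Named genes were, per comparison, the 10 with the smallest p, the extremes of each family, families 1 and 3, and genes whose probes differ in sign. Members and lists were chosen with earlier results of these data known.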

Additional observations from a re-analysis of the deposited data

Results flagged for a closer look

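Several values lay apart from the other arrays of their group by Dixon's criterion, which chance meets in about 1 of 20 groups. Among the 5 arrays at 4 h it was met by 2 of 28 P450 genes and by 5.79% of all features: Cyp2b21 on array 5 (-0.27, next value 0.17) and Cyp2c23 on array 3 (0.33, next value 0.05). Among the 4 arrays at 20 min it was met by 3 of 28 genes and by 5.36% of all features: Cyp1a1 on array 2 (1.83, next value -0.18), Cyp2b2 on array 1 (-0.78, next value -0.21) and Cyp2c12 on array 3 (0.33, next value 0.91).

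The repeat array of pair 2 was left out of the comparisons in the report and entered only alternative settings. On it 6 of 28 P450 genes (21.4%) had a ratio beyond 1 in size that was also beyond every same-RNA value, and 14.3% of all features had a ratio beyond 1. These were Cyp2c12 (4.66; outermost same-RNA value 0.98), Cyp4a3 (-2.71; -0.69), Cyp2f4 (2.05; 0.37), Cyp3a2 (1.98; 0.37), Cyp2b12 (1.30; 0.21) and Cyp2a3 (-1.18; -0.19).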

How the results depend on the processing

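The results were recomputed with up to 11 other settings and with each array left out. No P450 gene passed between the times in any of them, nor against the same-RNA arrays except where ratios were set against 0, which gave 6 genes at 4 h and 1 at 20 min, with 763 and 384 of all features. The other calls over all features were few and depended on the setting. At 4 h, 0 features passed with the repeat array averaged in as deposited, and 2 to 5 with an array left out. At 20 min, 0 passed with arrays scaled to 1 spread, with the repeat array as deposited or with its sign turned, with only the 2 groups compared in the fit, and with the replicate block, and 0 to 4 with an array left out. Between the times, 16 passed with scaling, 0 with the repeat array as deposited, 12 with the replicate block, and 4 to 29 with an array left out.

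Deviations of the 4 h and 20 min arrays with the same number had a Spearman rho of -0.04, 0.09, -0.02 and 0.01 across features. The highest rho with a 4 h array of another number was 0.09, 0.02, 0.03 and 0.10, so only number 2 had its higher value with its own number. Such correlations cannot tell if arrays share animals or RNA. With the replicate block 0 P450 genes passed, and the sign turned for 5 of 28 genes at 4 h, 3 at 20 min and 3 between the times, among them Cyp1a1 at 4 h (-0.085) and Cyp3a2 between the times (-0.085). For Cyp51 the block gave -0.60 between the times, past the threshold no longer (limma adjusted p = 0.163), as did scaling (0.0978), quantile normalization (0.091) and the repeat array averaged in as deposited (0.274) or with its sign turned (0.0707).

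Small family medians moved. For family 1 the median was -0.0051 at 4 h against 0, and between the times -0.26 with every probe a feature and -0.24 to 0.12 with an array left out. For family 3 it was 0.051 at 4 h with the repeat array as deposited. For family 4 it was -0.021 with quantile normalization and 0.067 with the repeat array's sign turned at 4 h, and -0.26 to 0.017 at 20 min with an array left out.

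The sign of the difference was the same in all settings for 10 of 28 genes at 4 h, 10 at 20 min and 14 between the times. Against 0 it turned at 4 h for 7 of 28, Cyp1a1 (-0.067), Cyp2c11 (-0.12), Cyp2c23 (0.062), Cyp3a2 (0.023), Cyp3a23-3a1 (-0.16), Cyp4f1 (-0.037) and Cyp4v3 (0.049). At 20 min it turned for 10 of 28, Cyp2c22 (0.056), Cyp2c23 (0.17), Cyp2j4 (-0.25), Cyp4a8 (0.041), Cyp2f4 (0.25), Cyp3a18 (-0.017), Cyp3a2 (0.019), Cyp3a23-3a1 (-0.075), Cyp4b1 (0.086) and Cyp4f1 (-0.26), and also for Cyp51 (0.12). At 4 h scaling and quantile normalization each turned 7 of 28 genes. Among them scaling turned Cyp2c12 (-0.12) and Cyp2f4 (-0.043), as did quantile normalization (-0.11 and -0.0050). The repeat array turned 5 of 28 at 4 h and 5 between the times, in each of its orientations. With its sign turned it gave, among these, -0.35 for Cyp2c12, -0.12 for Cyp2f4 and 0.11 for Cyp4a3 at 4 h, and -0.17 for Cyp3a2 between the times. The repeat array as deposited gave 0.051 for Cyp3a2 at 4 h, and array weights gave -0.0035 for it between the times.

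With some array left out the sign turned for 11 of 28 genes at 4 h, 16 at 20 min and 12 between the times. Among these genes, examples of the ranges at 4 h were -0.10 to 0.26 for Cyp2c12, -0.12 to 0.56 for Cyp3a23-3a1 and -0.040 to 1.496 for Cyp4f1. At 20 min they were -0.083 to 0.65 for Cyp1a1, -0.0071 to 0.20 for Cyp2b12, -0.16 to 0.041 for Cyp2f4, -0.068 to 0.12 for Cyp3a18, -0.040 to 0.64 for Cyp3a23-3a1, -0.22 to 0.050 for Cyp4a3, -0.26 to 1.28 for Cyp4f1 and -0.15 to 0.067 for Cyp51. Between the times they were -0.52 to 0.21 for Cyp1a1, -0.038 to 0.11 for Cyp1b1 and -0.085 to 0.10 for Cyp3a2. The cause of these changes was not tested. Without signal intensities, probes near background could not be set apart.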
